A study of Homo sapiens with 15 samples.

Results

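The 46 genes described here are the E2F genes, the cyclin E genes and genes of DNA replication, nucleotide supply and maintenance methylation, taken by symbol from a fixed list and matched by Ensembl ID among 57736 genes in the table. They were followed across 15 libraries of IMR90, fibroblasts grown from human fetal lung and kept as a line, in 5 groups of 3 libraries. Each of the 46 symbols matched 1 ID, and 44 members passed the low-count filter and were tested. E2F2 and E2F8 did not pass it and are given by their counts.

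Wild-type add-back cells expressed RAS and received an siRNA against METTL14 and then a lentivirus encoding wild-type METTL14. R298P add-back cells expressed RAS and received the same siRNA with a lentivirus for METTL14 with the R298P substitution. Knockdown cells expressed RAS and received that siRNA with a lentiviral vector. The siControl RAS cells expressed RAS and received a non-targeting siRNA. Control cells carried an empty retrovirus and the non-targeting siRNA. The first siRNA was given at day 4 after the retrovirus, the second siRNA and the lentivirus followed the next day, and RNA was taken 48 h later. The labels do not say if the siControl RAS group had a lentivirus as well, so the knockdown and the vector cannot be told apart in that comparison. Nor do they say that libraries of 1 group are of separate cultures, so p-values measure the spread between libraries, which may be technical. All cells are of 1 line.

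E2F factors are transcription factors that bind the promoters of genes needed to enter S phase, and the RB proteins hold them in check until cyclin-dependent kinases, cyclin E among their partners, release them. Replication origins are licensed by ORC, CDC6 and CDT1, which load the MCM helicase, and later fired when CDC45 and the GINS complex join it. In fibroblasts that express oncogenic RAS, cells stop dividing in a lasting state called senescence, and genes of this programme are known to be repressed there. METTL14 pairs with METTL3 to form the enzyme that places N6-methyladenosine on RNA, and the R298P substitution is known to weaken that enzyme.

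Total counts ran from 4917661 to 7763084 per library with a median of 5853195, and 1 count was worth 0.136 to 0.203 CPM, the count scaled to a library of 1000000 after TMM normalisation. Libraries are from 3′ ends, so levels are compared between groups and not between genes. METTL14 had 9.35, 4.94 and 3.94 CPM in knockdown libraries, against 26.2, 19.3 and 20.5 CPM in siControl RAS libraries, a 3.77-fold fall (edgeR adjusted p = 5.49e-06). It averaged 545 ± 32.0 CPM in wild-type add-back and 945 ± 80.4 CPM in R298P add-back cells (SD, n = 3 each), so the add-backs carried unequal amounts of METTL14 RNA. Whether the lentiviral METTL14 escapes the siRNA is not stated in the labels. MKI67, a marker of cycling cells, had 38.4, 44.9 and 39.6 CPM in knockdown libraries, 9.54, 14.1 and 7.31 CPM in siControl RAS libraries and 285, 303 and 264 CPM in control libraries. These are bulk samples, in which fewer cycling cells and less RNA per cell cannot be told apart. Among all libraries, knockdown replicate 1 stood apart on the third principal component, and replicate 3 of siControl RAS and of both add-backs lay together at one end of the fourth. All 10 fibroblast markers were detected in every group. Among epithelial markers CDH1, KRT5, KRT14 and SFTPC were at 0 in all libraries. The same held for the endothelial CDH5 and ERG and the leukocyte CD3E, ITGAM and LYZ. Detected epithelial markers were KRT18, KRT19, KRT8, CLDN4 and EPCAM, with 3618, 2236, 1007, 505 and 151 counts over all libraries. The endothelial TEK, CLDN5, KDR and VWF had 2562, 13, 12 and 9 counts, and the leukocyte CD68, CD14 and PTPRC had 963, 71 and 2.

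RAS expression went with a broad fall of the replication genes. With siControl RAS set over control, 34 of 44 tested members fell and 0 rose, in edgeR's quasi-likelihood test at a Benjamini-Hochberg adjusted p under 0.05 over all 13516 genes tested. That is 77.3% of the tested members, where 21.9% of all genes tested fell. The fall was at least 2-fold for 33 members (75.0%, against 8.56% of all genes). The median member had a log2 fold change of -2.24, and the median of all genes was -0.0037. In 39 of the 44 the siControl RAS libraries did not overlap the control libraries, which was so for 54.2% of all genes. Summed over the 46 members, the level was 613 to 660 CPM in siControl RAS libraries and 2051 to 2056 CPM in control libraries.

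**Figure D1:**
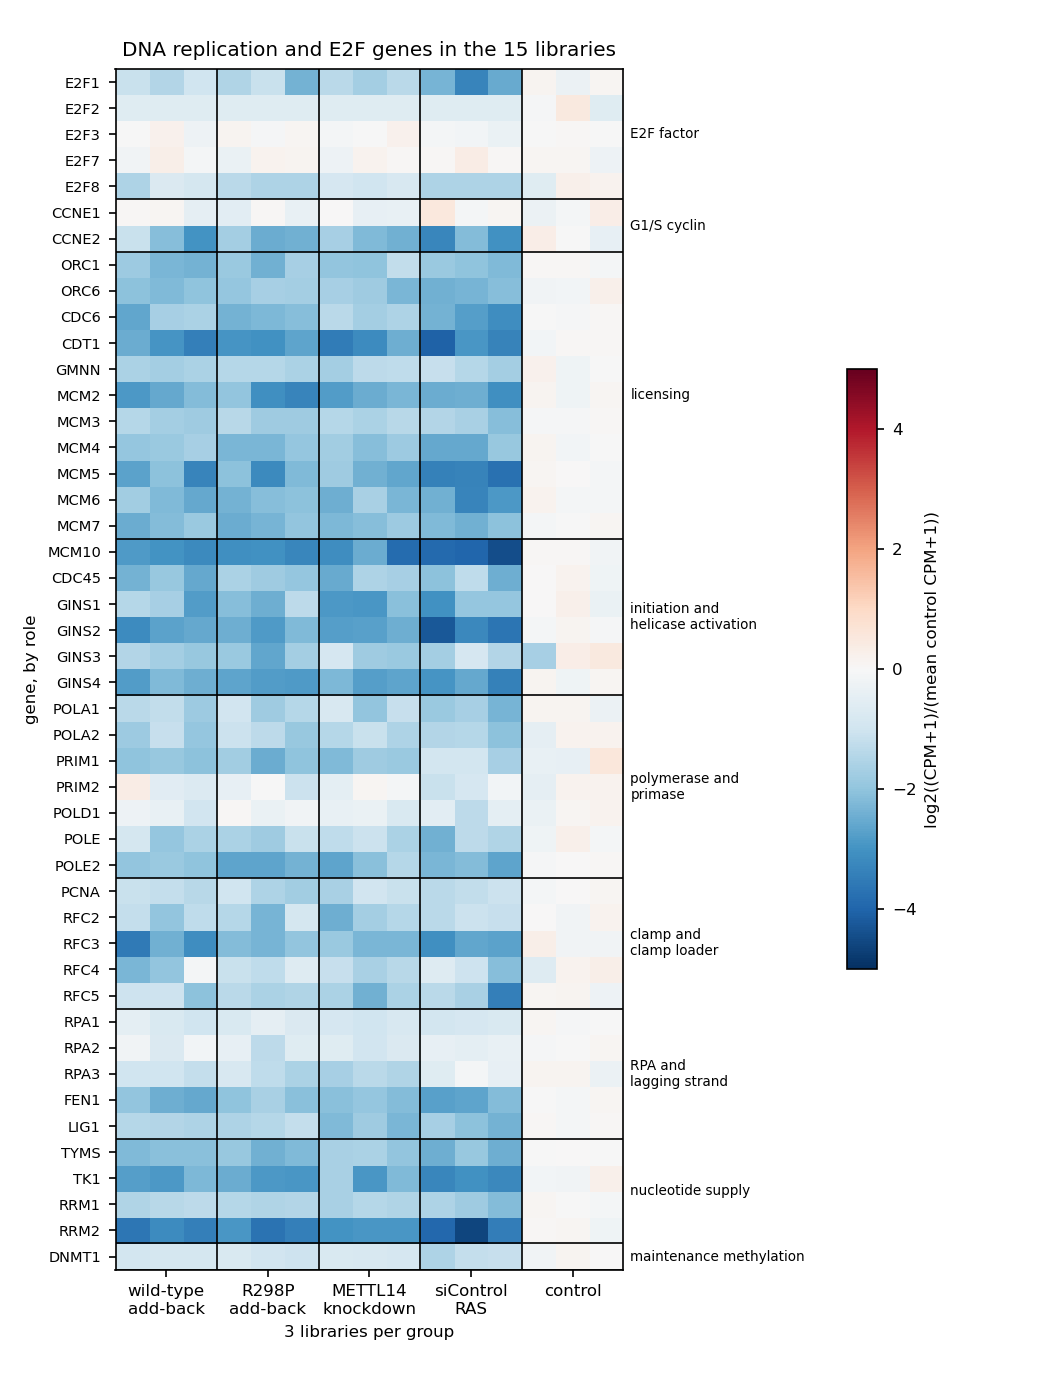
Heat map of the 46 members (rows, by role) in the 15 libraries (columns, by group), coloured by the log2 level with 1 CPM added, less the mean of the 3 control libraries. Most rows are below the control level in all 12 RAS libraries, while the rows of E2F3, E2F7 and CCNE1 stay close to it.

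The members' promoters were examined for the E2F box, the DNA word that E2F factors bind, as a description. RefSeq promoters (GRCh38.p14, 250 bases before to 50 after a gene's start) were matched for 39 members. A box was counted for TTTCCCGC, TTTCGCGC, TTTGCCGC or TTTGGCGC on either strand. It was present in 22 of the 39 (56.4%), against 6.70% of the 10049 genes tested that have a promoter and 3.99% of all 27305 genes with one. Median GC content of the windows was 66.7%, 64.7% and 58.7% in that order. The members were listed as replication and E2F genes, so a high share of boxes may follow from that choice. It is no evidence on why the members fell. The sequences run from 120 bases before the start to 30 after it. They are shown for the roles that have a fallen member with a box in that stretch, and in each of those roles for the box-holding member that fell the most, so a member without a box or without a promoter entry may have fallen further. The last is of E2F7, the tested member with the smallest fold change. Capitals mark the E2F box. E2F1 lies at chr20:33686356-33686505, minus strand; CDT1 at chr16:88803669-88803818, plus strand; GINS2 at chr16:85688925-85689074, minus strand. POLE2 is at chr14:49688185-49688334, minus strand, RFC3 at chr13:33818029-33818178, plus strand and LIG1 at chr19:48170315-48170464, minus strand. TYMS is at chr18:657533-657682, plus strand, DNMT1 at chr19:10194924-10195073, minus strand and E2F7 at chr12:77065540-77065689, minus strand. The strand shown is that of the gene.

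E2F1: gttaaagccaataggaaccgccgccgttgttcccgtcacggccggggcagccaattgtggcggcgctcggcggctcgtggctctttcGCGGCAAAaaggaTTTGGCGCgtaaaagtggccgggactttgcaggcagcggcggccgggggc
CDT1: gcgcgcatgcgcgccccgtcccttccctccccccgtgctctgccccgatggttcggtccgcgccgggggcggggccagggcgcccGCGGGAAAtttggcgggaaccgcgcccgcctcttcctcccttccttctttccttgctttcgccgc
GINS2: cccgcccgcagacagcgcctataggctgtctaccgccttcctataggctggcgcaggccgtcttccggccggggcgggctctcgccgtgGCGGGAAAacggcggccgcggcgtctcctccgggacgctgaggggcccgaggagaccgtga
POLE2: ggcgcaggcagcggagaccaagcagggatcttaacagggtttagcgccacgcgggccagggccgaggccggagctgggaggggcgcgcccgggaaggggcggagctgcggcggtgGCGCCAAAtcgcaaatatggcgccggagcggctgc
RFC3: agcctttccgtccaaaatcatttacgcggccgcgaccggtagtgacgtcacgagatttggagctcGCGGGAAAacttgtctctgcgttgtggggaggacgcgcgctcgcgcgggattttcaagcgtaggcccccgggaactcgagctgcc
LIG1: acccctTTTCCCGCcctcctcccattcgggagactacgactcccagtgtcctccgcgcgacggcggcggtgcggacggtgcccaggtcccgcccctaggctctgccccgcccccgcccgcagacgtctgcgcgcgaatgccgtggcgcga
TYMS: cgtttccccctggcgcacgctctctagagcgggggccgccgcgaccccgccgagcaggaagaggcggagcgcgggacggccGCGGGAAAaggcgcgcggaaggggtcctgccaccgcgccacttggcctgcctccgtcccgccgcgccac
DNMT1: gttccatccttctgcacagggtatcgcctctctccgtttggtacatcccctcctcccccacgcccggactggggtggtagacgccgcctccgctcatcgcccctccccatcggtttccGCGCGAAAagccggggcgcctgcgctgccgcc
E2F7: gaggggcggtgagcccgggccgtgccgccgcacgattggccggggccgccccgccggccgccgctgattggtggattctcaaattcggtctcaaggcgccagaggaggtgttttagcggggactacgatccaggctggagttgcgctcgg

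E2F1 holds 2 boxes in its 150 bases, E2F7 holds 0, and the other 7 hold 1 each. All but E2F7 were picked for a box and for a fall, so they cannot show that boxes go with falls. E2F3, not printed, holds a box and had a log2 fold change of -0.18. MCM10 has a promoter entry without a box and had a log2 fold change of -5.02. Members with a box and members without both fell in siControl RAS cells. Of 21 tested members with a box 19 fell, with a median log2 fold change of -2.25, and of 17 without one 11 fell, with a median of -1.82. Of all genes tested 21.9% fell, and the difference by box was not tested. A match is a stretch of letters, not a measured binding site.

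Of the E2F factors, E2F1, the activator that drives S-phase entry, fell, and its relatives E2F3 and E2F7 did not pass the test. E2F1 had 4.63, 1.87 and 3.92 CPM in siControl RAS libraries, against 30.5, 22.2 and 29.3 CPM in control libraries. All 3 siControl RAS libraries lay below all 3 controls, a 7.69-fold fall (log2 fold change -2.94 ± 0.33 SE, edgeR adjusted p = 3.05e-09). E2F3, another activator, had 86.9, 83.7 and 74.5 CPM in siControl RAS libraries, against 91.9, 95.7 and 90.8 CPM in control libraries (log2 fold change -0.18 ± 0.11 SE, adjusted p = 0.197). E2F7, a repressor of E2F targets, had 60.5, 75.1 and 59.7 CPM in siControl RAS libraries, against 62.4, 62.4 and 48.7 CPM in control libraries (log2 fold change 0.17 ± 0.15 SE, adjusted p = 0.387). Its groups overlapped. E2F8, the other atypical repressor, had 0 counts over the siControl RAS libraries and 35 over the control libraries, at least 11.5-fold lower when the empty group is set at a floor of 3 counts. The exact 95% lower limit of that ratio, which counts the error of both groups, is 8.90. E2F2, an activator, had 0 counts over the siControl RAS libraries and 10 over the control libraries, at least 3.30-fold lower by the same floor, with an exact lower limit of 2.22. The limits leave out the spread between libraries.

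Of the cyclin E genes, whose products activate CDK2 at the start of S phase, CCNE2 fell and CCNE1 did not pass the test. CCNE2 had 0, 1.12 and 0.178 CPM in siControl RAS libraries, against 10.9, 8.40 and 6.15 CPM in control libraries, a 20.1-fold fall (edgeR adjusted p = 1.17e-04). The siControl RAS side holds 7 counts, and its size moves with single libraries. The log2 fold change was -4.33 with all libraries, -3.68 without siControl RAS replicate 1 and -6.42 without siControl RAS replicate 2. CCNE1 had 17.2, 10.9 and 12.5 CPM in siControl RAS libraries, against 9.38, 10.9 and 14.97 CPM in control libraries, with overlapping groups (log2 fold change 0.21 ± 0.28 SE, adjusted p = 0.578). The difference between the cyclins was not tested. The CCNE2 3′ end lies opposite INTS8 in GENCODE 29, and the labels do not give the strand setting of the counting.

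All 11 licensing genes fell, with a median log2 fold change of -2.82. CDT1, which loads the helicase with CDC6, had 1.36, 4.12 and 2.85 CPM in siControl RAS libraries, against 34.2, 39.04 and 39.6 CPM in control libraries, a 13.8-fold fall (edgeR adjusted p = 8.04e-11). Its inhibitor geminin, GMNN, fell the least of the 11, with 25.2, 20.4 and 16.8 CPM in siControl RAS libraries, against 66.4, 48.6 and 56.2 CPM in control libraries (2.73-fold, adjusted p = 3.26e-08). Libraries of the groups were apart for both. The 6 subunits of the MCM2-7 helicase had fitted falls of unequal size, and the differences between them were not tested. MCM5 fell 13.6-fold, MCM6 8.43-fold, MCM2 7.07-fold, MCM4 5.14-fold, MCM7 4.75-fold and MCM3 3.40-fold. MCM5 had 4.36, 4.50 and 3.21 CPM in siControl RAS libraries, against 58.4, 55.7 and 51.2 CPM in control libraries, and MCM3 had 17.6, 15.7 and 10.5 CPM in siControl RAS libraries, against 48.6, 48.6 and 52.7 CPM in control libraries. Every subunit was lower in all siControl RAS libraries than in any control. The origin recognition genes ORC1 and ORC6 fell 7.84-fold and 5.72-fold, and CDC6 fell 7.62-fold.

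Of the 6 genes that turn the loaded helicase into an active one, 5 fell, with a median of -2.98 over the 6. MCM10, which helps activate the helicase, had the largest fitted fall of the 44 members when all libraries were used. It had 1.23, 1.12 and 0.535 CPM in siControl RAS libraries, against 33.9, 34.1 and 28.8 CPM in control libraries (32.4-fold, edgeR adjusted p = 2.47e-12). GINS2, a GINS subunit, had 0.136, 1.31 and 0.713 CPM in siControl RAS libraries, against 19.1, 22.9 and 19.8 CPM in control libraries (29.5-fold, adjusted p = 3.49e-10). Both were under 2 CPM in every siControl RAS library, which is a few counts. GINS4, GINS1 and CDC45 fell 9.74-fold, 6.40-fold and 5.23-fold. Without siControl RAS replicate 2 the log2 fold change of GINS2 was -5.63, against -4.88 with it, and that of CDC45 was -3.04, against -2.39 with it. GINS3 had 1.23, 2.997 and 1.60 CPM in siControl RAS libraries, against 1.25, 8.07 and 9.15 CPM in control libraries, so that its control replicate 1 lay among the siControl RAS values. Its log2 fold change was -1.67 ± 0.72 SE (adjusted p = 0.0577), without that library -2.16 (adjusted p = 0.0141), and with the 6 libraries of these groups alone it passed the test too (adjusted p = 0.0381).

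Polymerase and primase genes fell less uniformly, 4 of 7, with a median of -1.75. POLE2, a subunit of the leading-strand polymerase, had 0.272, 0.375 and 0 CPM in siControl RAS libraries, against 5.001, 5.27 and 5.49 CPM in control libraries (22.1-fold lower, edgeR adjusted p = 6.41e-04). Its catalytic partner POLE fell 3.68-fold, and POLA1 and POLA2, of the polymerase that starts each strand, fell 4.28-fold and 3.36-fold. The primase genes PRIM1 and PRIM2 and the lagging-strand polymerase gene POLD1 had log2 fold changes of -1.47, -0.75 and -1.15, with adjusted p-values of 0.0819, 0.138 and 0.225. PRIM1 passed the test in limma-voom (adjusted p = 0.0318) and with the 6 libraries alone (adjusted p = 0.0380 in edgeR). PRIM2 had an adjusted p of 0.0463 without siControl RAS replicate 3, at a log2 fold change of -1.15.

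The sliding clamp PCNA, which tethers polymerases to DNA, had 29.7, 32.6 and 36.2 CPM in siControl RAS libraries, against 71.4, 77.6 and 83.2 CPM in control libraries, a 2.36-fold fall (edgeR adjusted p = 2.25e-07). Of the clamp loader genes, RFC3 fell 9.21-fold, RFC5 4.69-fold and RFC2 2.46-fold. RFC4 had 5.18, 3.75 and 1.25 CPM in siControl RAS libraries, against 5.31, 10.05 and 10.98 CPM in control libraries, at the edge of the threshold (log2 fold change -1.35 ± 0.56 SE, adjusted p = 0.0504). Without control replicate 1 it was -1.61 (adjusted p = 0.0319), and without siControl RAS replicate 1 it was -1.81 (adjusted p = 0.0305). It also passed with upper-quartile factors, without the low-count filter, in limma-voom and with the 6 libraries alone (adjusted p = 0.0432, 0.0216, 0.0186 and 0.0219). The RFC4 3′ end lies opposite EIF4A2, and reads of the pair cannot be told apart if strand was not used.

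Of the subunits of RPA, which coats single-stranded DNA, only RPA1 passed the test. RPA1 fell 1.82-fold (adjusted p = 3.91e-05 in edgeR), while RPA2 and RPA3 had log2 fold changes of -0.44 and -0.39 (adjusted p = 0.104 and 0.204). The lagging-strand enzymes both fell, FEN1, the flap nuclease, 6.05-fold and LIG1, the ligase that joins Okazaki fragments, 4.30-fold. RPA1 alone among the 34 fell by under 2-fold.

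All 4 genes of nucleotide supply fell, with a median of -2.85. RRM2, the S-phase subunit of ribonucleotide reductase, had 6.95, 4.12 and 9.98 CPM in siControl RAS libraries, against 127, 131 and 105 CPM in control libraries (17.1-fold lower, edgeR adjusted p = 1.09e-16). RRM1, the larger subunit, had 89.2, 76.1 and 57.2 CPM in siControl RAS libraries, against 279, 260.1 and 248 CPM in control libraries (3.53-fold lower, adjusted p = 9.88e-16). The subunits of 1 enzyme thus fell by unequal amounts, a difference that was not tested. TK1 and TYMS, which make thymidine nucleotides, fell 10.4-fold and 4.99-fold. DNMT1, which copies DNA methylation behind the fork, had 77.5, 98.9 and 103 CPM in siControl RAS libraries, against 199, 251 and 232 CPM in control libraries (2.45-fold lower, adjusted p = 7.86e-13).

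**Figure D2:**
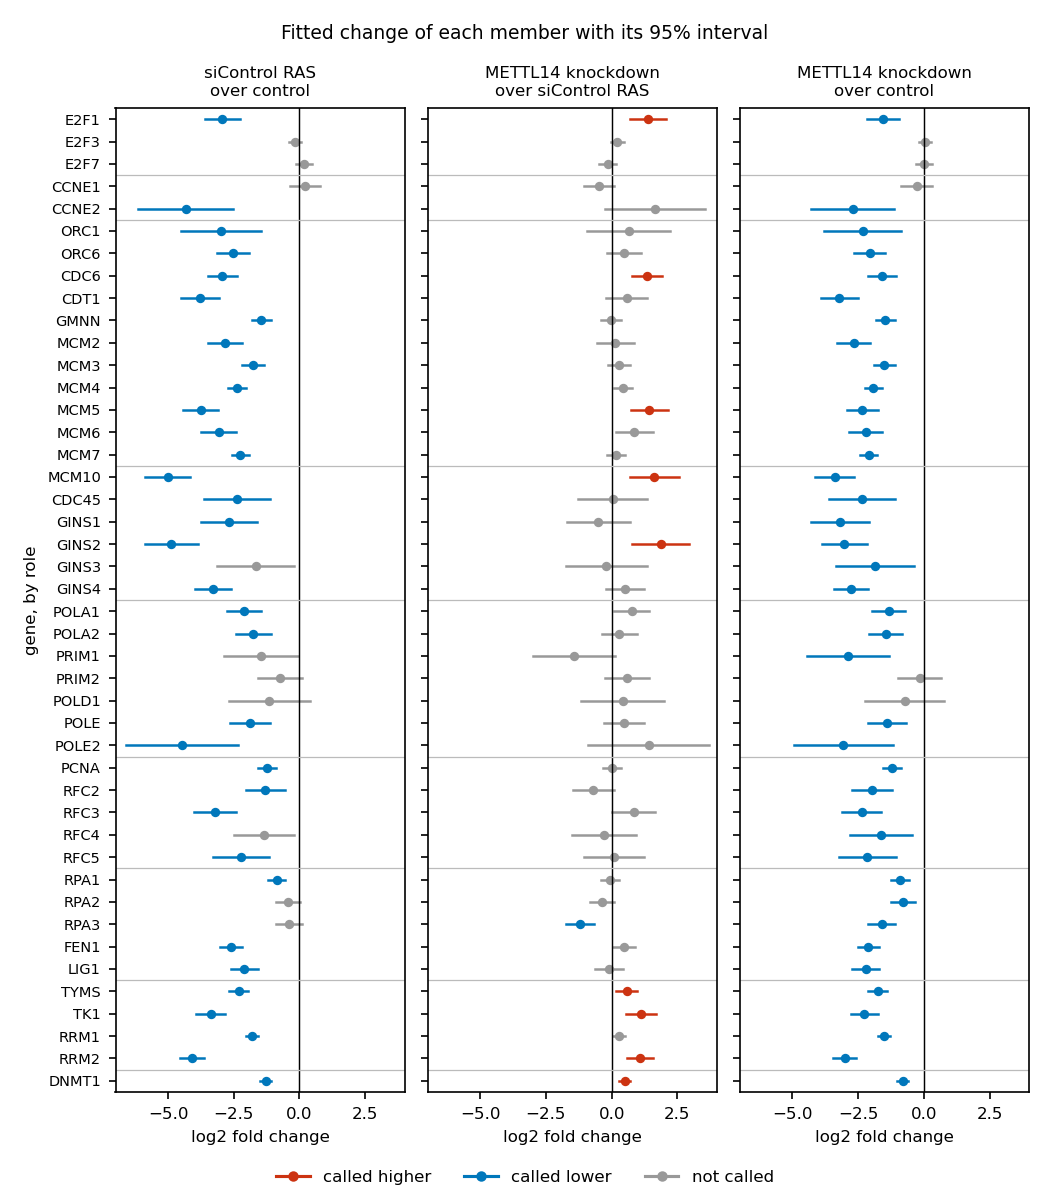
Fitted log2 fold changes of the 44 tested members with 95% intervals, for siControl RAS over control, knockdown over siControl RAS and knockdown over control, coloured red where called higher, blue where called lower and grey where not called at an adjusted p under 0.05. In the siControl RAS over control panel 34 points are called and all of them lie below 0, while in the knockdown over siControl RAS panel 9 called points lie above 0 and 1, RPA3, below.

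METTL14 knockdown in RAS cells went with a partial rise of some of these genes. With knockdown set over siControl RAS, 9 of 44 tested members rose, 1 fell and 34 did not pass the test. That is 20.5% higher, where 7.47% of all genes tested rose, and 2.27% lower, where 8.06% of all genes fell. The median member had a log2 fold change of 0.43, and the median of all genes was -0.0028. Without knockdown replicate 3 the member median was 0.26, the lowest with 1 library left out. In 14 of 44 members (31.8%) the libraries of the groups did not overlap, which is close to the 30% of all genes. Without knockdown replicate 1, which stands apart, 7 members rose and 1 fell, and without siControl RAS replicate 3, 9 rose and 1 fell. Summed over the 46 members, the level was 738 to 773 CPM in knockdown libraries and 613 to 660 CPM in siControl RAS libraries. This sum leans on abundant members. DNMT1 averaged 130 CPM in knockdown and 93.2 CPM in siControl RAS cells. RRM1, which was not called, averaged 91.2 and 74.2 CPM in that order. The log2 fold change was above 0 for 32 of the 44 and below 0 for 12. RPA and lagging-strand genes summed to 71.4 to 72.1 CPM in knockdown and 79.3 to 86.1 CPM in siControl RAS libraries.

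Among the E2F and licensing genes, E2F1, CDC6 and MCM5 rose. E2F1 had 10.2, 7.72 and 10.01 CPM in knockdown libraries, against 4.63, 1.87 and 3.92 CPM in siControl RAS libraries, and the groups did not overlap (2.61-fold, log2 fold change 1.38 ± 0.34 SE, edgeR adjusted p = 0.00355). CDC6 had 13.8, 10.6 and 11.98 CPM in knockdown libraries, against 6.27, 4.50 and 3.39 CPM in siControl RAS libraries (2.53-fold, adjusted p = 8.22e-04). MCM5 had 15.2, 9.57 and 8.21 CPM in knockdown libraries, against 4.36, 4.50 and 3.21 CPM in siControl RAS libraries (2.69-fold, adjusted p = 0.00375). These 3 remained called under each alternative tried. E2F8 had 10 counts over the knockdown libraries and 0 over the siControl RAS libraries, at least 3.49-fold higher with a floor of 3 counts, and with an exact 95% lower limit of 2.34. It was not tested.

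Of the helicase-activation genes MCM10 and GINS2 rose, on few counts. MCM10 had 2.84, 4.94 and 1.31 CPM in knockdown libraries, against 1.23, 1.12 and 0.535 CPM in siControl RAS libraries (3.08-fold, edgeR adjusted p = 0.0116). Its adjusted p was 0.0674 without siControl RAS replicate 3 (log2 fold change 1.36) and 0.192 without knockdown replicate 2 (1.04, against 1.62 with all libraries). GINS2 had 2.24, 2.31 and 2.95 CPM in knockdown libraries, against 0.136, 1.31 and 0.713 CPM in siControl RAS libraries (3.63-fold, adjusted p = 0.0143). It was 1.30 on the log2 scale without siControl RAS replicate 1 (adjusted p = 0.122) and 1.73 without knockdown replicate 3 (adjusted p = 0.0536), against 1.86 with all libraries, and 2.61 without siControl RAS replicate 2. Libraries of the groups did not overlap for either gene. The GINS2 3′ end lies opposite GSE1, and reads of the pair cannot be told apart if strand was not used.

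In nucleotide supply RRM2, TK1 and TYMS rose, and RRM1 did not pass the test (log2 fold change 0.29 ± 0.11 SE, edgeR adjusted p = 0.0745). RRM2 had 14.4, 15.1 and 15.1 CPM in knockdown libraries, against 6.95, 4.12 and 9.98 CPM in siControl RAS libraries (2.11-fold, adjusted p = 0.00115). TK1 had 18.1, 6.79 and 11.8 CPM in knockdown libraries, against 5.18, 6.18 and 5.35 CPM in siControl RAS libraries (2.17-fold, adjusted p = 0.00542). Knockdown replicate 1 is the highest TK1 value of these, and without it the log2 fold change was 0.74 (adjusted p = 0.0932), against 1.12 with it. TYMS had 24.2, 24.5 and 18.9 CPM in knockdown libraries, against 13.2, 19.5 and 13.2 CPM in siControl RAS libraries, with overlapping groups (1.48-fold, adjusted p = 0.0358). Its log2 fold change was 0.47 and 0.48 without siControl RAS replicate 1 or 3, and 0.52 and 0.50 without knockdown replicate 1 or 2, with adjusted p-values of 0.163, 0.141, 0.104 and 0.128. TYMS overlaps ENOSF1 at its 3′ end, and TYMS and RRM2 have named pseudogenes, so their counts are uncertain to that degree.

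DNMT1 had 133, 131 and 126 CPM in knockdown libraries, against 77.5, 98.9 and 103 CPM in siControl RAS libraries, a 1.40-fold rise (log2 fold change 0.49 ± 0.10 SE, edgeR adjusted p = 6.82e-04). The smallest RPA subunit went the other way. RPA3 had 6.71, 8.64 and 7.55 CPM in knockdown libraries, against 14.8, 21.7 and 17.3 CPM in siControl RAS libraries, a 2.33-fold fall (adjusted p = 8.02e-04). Both kept their call under each alternative tried, and for both the libraries of the groups were apart.

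The other members did not pass the test, the rest of the MCM2-7 helicase and PCNA among them. MCM2, MCM3, MCM4, MCM6 and MCM7 had log2 fold changes of 0.14, 0.26, 0.44, 0.87 and 0.16 for knockdown over siControl RAS. PCNA had 24.4, 39.05 and 35.5 CPM in knockdown libraries, against 29.7, 32.6 and 36.2 CPM in siControl RAS libraries, with a 95% interval of -0.34 to 0.37 on the log2 scale. Of the 7 polymerase and primase genes and of the 5 clamp genes 0 were called, where 7.47% of all genes tested rose and 8.06% fell. With so few genes, 0 calls are not read as a result about these roles. Over all 44 members 16 had an unadjusted p under 0.05, and the share of all genes at that level was not counted. Members near the threshold passed it in some settings. MCM4 was called at 0.70 without siControl RAS replicate 3 and at 0.55 without knockdown replicate 2, MCM6 at 1.23 and RRM1 at 0.46 without siControl RAS replicate 1, FEN1 at 0.68 without siControl RAS replicate 3 and POLA1 at 1.06 without knockdown replicate 2. CCNE2 was called at 3.72 without siControl RAS replicate 2. With all libraries, RRM1 passed with upper-quartile factors and without the low-count filter (adjusted p = 0.0404 and 0.0408 in edgeR), and MCM4 passed with a replicate block (adjusted p = 0.0477). Of 21 tested members with an E2F box in the promoter 5 rose, and of 17 without one 3 rose, with median log2 fold changes of 0.47 and 0.29. Of all genes tested 7.47% rose, and the difference by box was not tested.

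**Figure D3:**
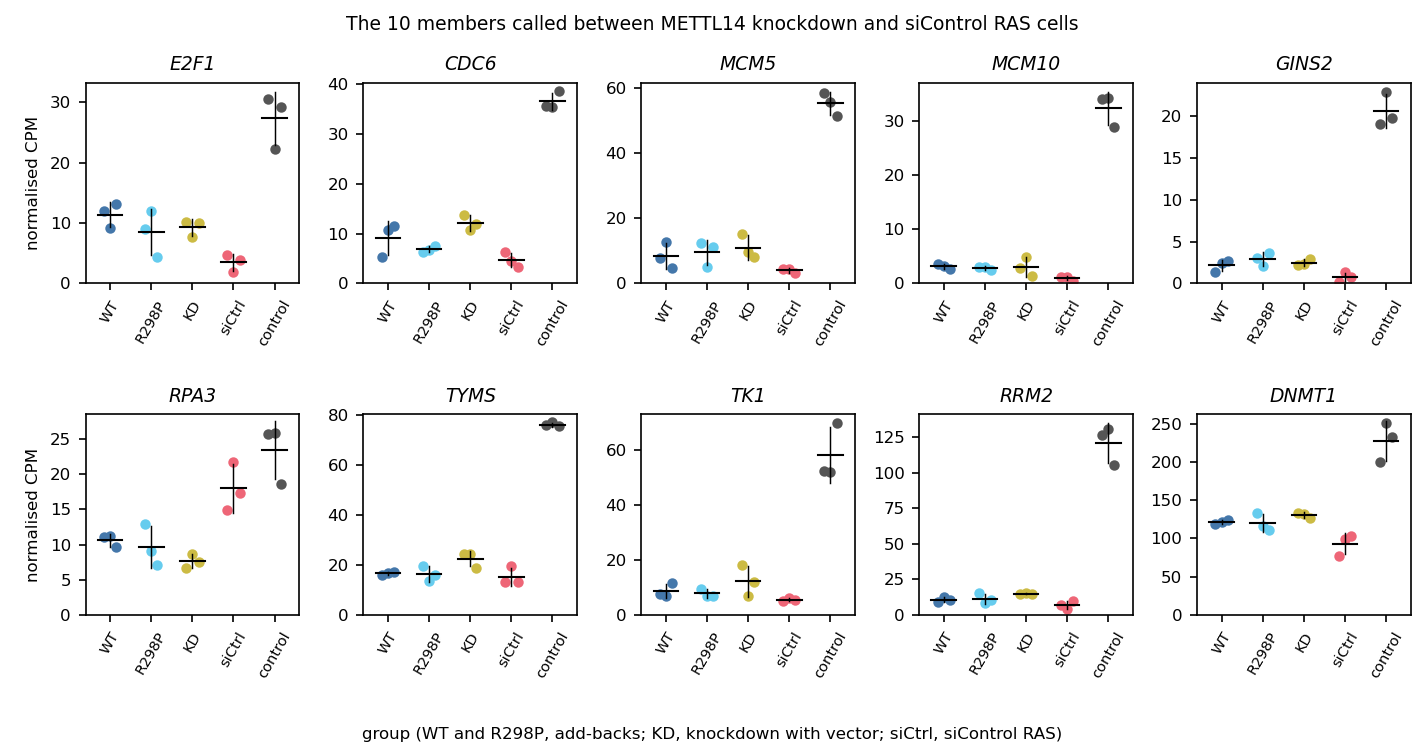
Level in CPM in each library, with the mean and SD, for the 10 members called between knockdown and siControl RAS, across the wild-type add-back, R298P add-back, knockdown, siControl RAS and control groups. For E2F1, CDC6, MCM5, MCM10, GINS2, TK1, RRM2, TYMS and DNMT1 the knockdown mean lies above the siControl RAS mean and below the control mean, and for RPA3 it lies below both.

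The rise left the members far below their control level. With knockdown set over control, 39 of 44 tested members were lower and 0 higher, where 16.7% of all genes tested were lower, and the member median was -1.96. E2F1 averaged 9.30 ± 1.37 CPM in knockdown cells and 27.3 ± 4.45 CPM in control cells (SD, n = 3 each). RRM2 averaged 14.9 ± 0.396 CPM in knockdown cells and 121 ± 13.8 CPM in control cells, 8.10-fold lower (edgeR adjusted p = 6.84e-14). MCM10 was 10.5-fold lower, GINS2 8.15-fold and MCM5 5.05-fold. The members that did not pass here were E2F3, E2F7, CCNE1, PRIM2 and POLD1. The call of GINS3 was lost without control replicate 2 or 3 or knockdown replicate 2 or 3 (log2 fold changes of -1.62, -1.46, -1.62 and -1.58), and that of RFC4 without the same libraries (-1.54, -1.45, -1.49 and -1.65). The ORC1 call was lost without knockdown replicate 1 or 2 (-2.13 and -2.09), and the POLE2 call without knockdown replicate 1 (-2.54). GINS3 was also lost with a replicate block (adjusted p = 0.0751) and in limma-voom (adjusted p = 0.0997). Some log2 fold changes moved in size with the call kept. Without knockdown replicate 3, GINS1 was at -3.78 and POLE2 at -4.27, against -3.19 and -3.06 with all libraries. Without knockdown replicate 1, GINS3 was at -2.55, against -1.87 with all libraries. This comparison shares its libraries with those above, so it is no separate evidence.

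Adding METTL14 back changed no member past the test. Of 44 tested members 0 were called for wild-type add-back over knockdown (0.621% of all genes tested were called, in either direction), 0 for R298P add-back over knockdown (1.09%) and 0 for wild-type over R298P add-back (0.0222%). At an unadjusted p under 0.05 there were 5, 5 and 3 members. The share of all genes at that level was not counted, so nothing is read from these numbers. In limma-voom 0 of 44 were called in each comparison. DESeq2 called 0 as well, of the 38, 21 and 31 members to which it gave an adjusted p. The smallest adjusted p-values were 0.474, 0.214 and 0.980 in edgeR. The median member had a log2 fold change of -0.06, -0.10 and 0.03. With 1 library left out these medians ran from -0.11 to -0.02, -0.14 to -0.03 and -0.07 to 0.08, and the last changed sign. It was below 0 without wild-type replicate 1 or R298P replicate 2. A miss does not show equal levels. The 95% interval stayed within 1 log2 unit of 0 for 27, 28 and 28 of the 44 members in the 3 comparisons. Summed over the 46 members, the level was 723 to 766 CPM in wild-type add-back, 697 to 765 CPM in R298P add-back and 738 to 773 CPM in knockdown libraries.

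The members called in the knockdown are given here with the add-backs. They were picked where the same knockdown libraries stood off from siControl RAS, so the values are a description and nothing is read from their direction. E2F1 had 11.9, 9.13 and 13.2 CPM in wild-type add-back libraries, 9.06, 11.9 and 4.46 CPM in R298P add-back libraries and the knockdown values above, with 95% intervals on the log2 scale of -0.34 to 0.92 for wild-type and -0.75 to 0.52 for R298P add-back over knockdown. CDC6 had 5.25, 10.8 and 11.5 CPM in wild-type add-back and 6.36, 6.81 and 7.50 CPM in R298P add-back libraries, against 13.8, 10.6 and 11.98 CPM in knockdown libraries. R298P add-back libraries were all below the knockdown libraries for CDC6, at a log2 fold change of -0.82 ± 0.28 SE that did not pass the test (edgeR adjusted p = 0.214), while wild-type add-back libraries overlapped them. TYMS had 15.8, 16.9 and 17.1 CPM in wild-type add-back and 19.7, 13.6 and 15.8 CPM in R298P add-back libraries, against 24.2, 24.5 and 18.9 CPM in knockdown libraries, with log2 fold changes of -0.44 and -0.45 (adjusted p = 0.553 and 0.402). RRM2 had 9.09, 12.7 and 10.3 CPM in wild-type add-back and 15.3, 8.52 and 10.3 CPM in R298P add-back libraries, against 14.4, 15.1 and 15.1 CPM in knockdown libraries (-0.46 and -0.38). TYMS and RRM2 did not pass the test in either add-back. RPA3 had 11.1, 11.2 and 9.58 CPM in wild-type add-back and 12.9, 9.03 and 7.10 CPM in R298P add-back libraries, against 6.71, 8.64 and 7.55 CPM in knockdown libraries (0.47 and 0.34). DNMT1 averaged 122 ± 2.49 CPM in wild-type add-back, 120.3 ± 11.9 CPM in R298P add-back and 130.4 ± 3.64 CPM in knockdown cells (SD, n = 3 each). MCM5 averaged 8.38, 9.56 and 11.01 CPM in wild-type add-back, R298P add-back and knockdown cells (n = 3 each). In the same order of groups, MCM10 averaged 3.14, 2.84 and 3.03 CPM and GINS2 averaged 2.15, 2.91 and 2.502 CPM. TK1 averaged 8.73, 7.81 and 12.2 CPM in that order.

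LIG1, which was not called in the knockdown, had 11.5, 11.2 and 10.3 CPM in wild-type add-back and 10.3, 11.2 and 13.6 CPM in R298P add-back libraries, against 6.30, 8.64 and 5.91 CPM in knockdown libraries. Both add-backs lay above all knockdown libraries, at log2 fold changes of 0.66 ± 0.26 and 0.74 ± 0.26 SE (edgeR adjusted p = 0.474 and 0.233), and both share the knockdown libraries. Members whose libraries did not overlap the knockdown were 6 of 44 (13.6%) for wild-type add-back, where 1763 of all 13516 genes tested did not overlap, and 4 of 44 (9.09%) for R298P add-back, where 2029 of all genes did not. These shares are near or below that of all genes. POLE2 had 11 counts over the wild-type add-back libraries, 1 over the R298P add-back libraries and 11 over the knockdown libraries. The ratio of normalised counts, higher over lower, was 11.1 for wild-type over R298P add-back (95% exact interval 1.61 to 477) and 10.7 for knockdown over R298P add-back (1.56 to 463), intervals that cover counting error only. E2F8 had 8, 1 and 10 counts in the same order of groups. How small a difference the libraries can show for a gene at this depth was not tested.

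**Figure D4:**
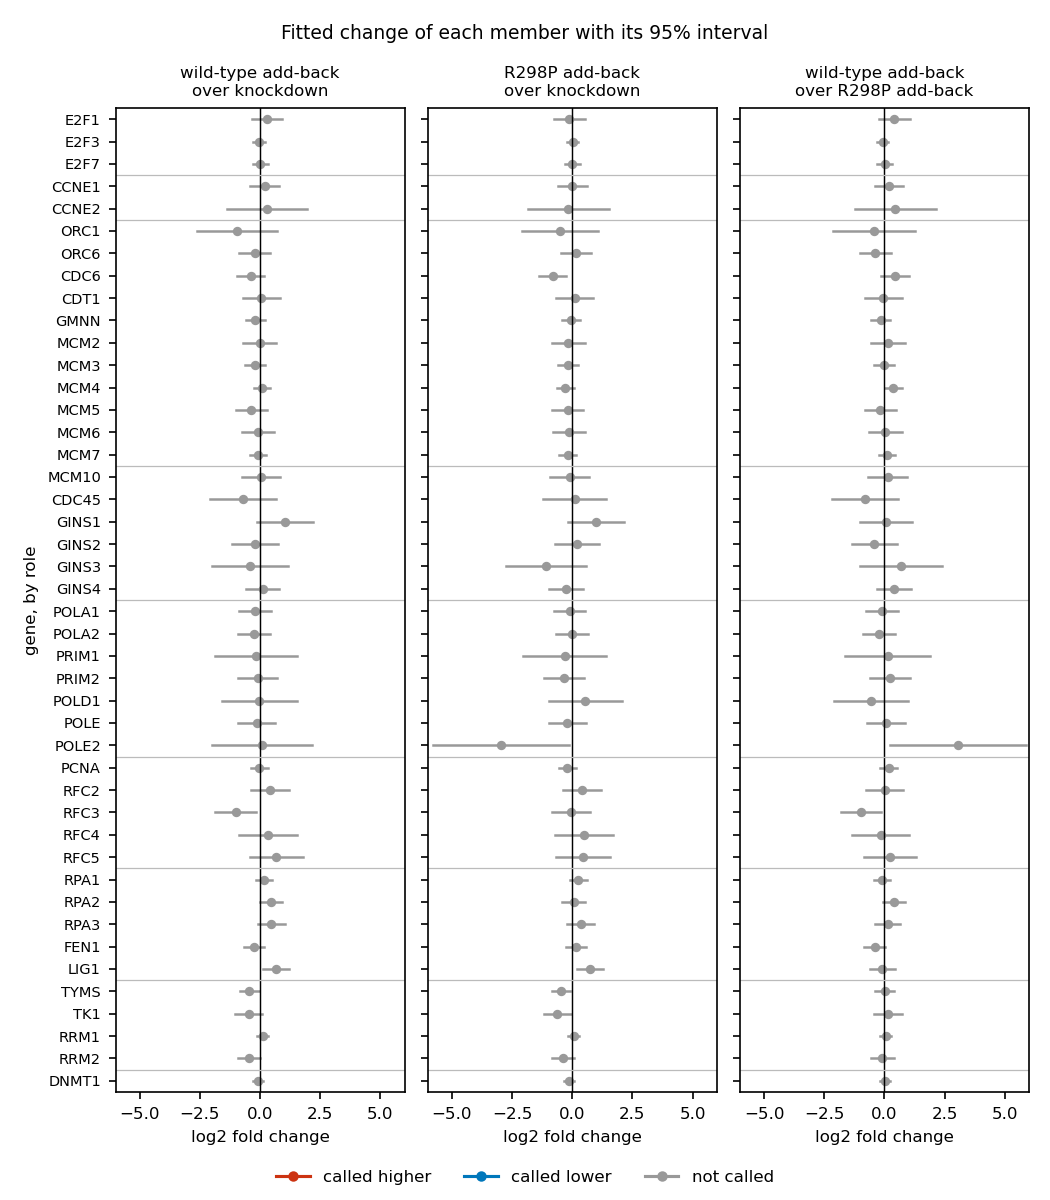
Fitted log2 fold changes of the 44 tested members with 95% intervals for wild-type add-back over knockdown, R298P add-back over knockdown and wild-type over R298P add-back. No point is called in any panel, most intervals cross 0, and the interval of POLE2, which has 1 count over the R298P libraries, is the widest.

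Other genes of the same programme were counted from lists chosen by function. Earlier results of these data were known when the lists were made, so they are no separate evidence. Of 30 other replication fork genes 22 fell and 0 rose in siControl RAS over control, with a median log2 fold change of -1.22. That is 73.3% lower, where 21.9% of all genes tested fell. CLSPN, an adaptor of the replication checkpoint, and DSCC1, a part of an alternative clamp loader, had the largest falls (-3.95 and -3.68). All 23 other E2F target and nucleotide genes fell, with a median of -1.75. ESCO2, a cohesin acetyltransferase, had 2 counts in siControl RAS and 217 in control libraries, and CDCA7 fell by 5.94 on the log2 scale. For knockdown over siControl RAS, 1 of the fork genes rose (CHTF8, 0.51) and 0 fell, with a median of 0.16. The share that rose, 3.33%, is below the 7.47% of all genes tested. In the E2F target list 5 rose (21.7%) and 2 fell (8.70%), with a median of 0.36. The share that fell is close to the 8.06% of all genes. MYBL2, a transcription factor of the late cell cycle, had a log2 fold change of 2.36, ESCO2 had 26 counts in knockdown and 2 in siControl RAS libraries (ratio 13.6, 95% exact interval 3.40 to 118), and CDK2, the partner of cyclin E, and NASP, a histone chaperone, fell (-0.98 and -0.36). CDK2 averaged 152 ± 9.25 CPM in knockdown and 299 ± 13.5 CPM in siControl RAS cells (SD, n = 3 each), opposite in direction to E2F1.

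Genes of RB, the DREAM complex and E2F cofactors did not move as a block. In siControl RAS over control 5 of 18 rose (27.8%, where 24.0% of all genes tested rose), CCND2 and RBL2 the most (3.80 and 1.21 on the log2 scale), and 7 fell (38.9%, against 21.9% of all genes), LIN9 and RBL1 the most (-3.02 and -2.20), with a median of -0.18. In knockdown over siControl RAS 5 of 18 rose, CCND2 and CDK6 the most (1.18 and 0.61), and 1 fell (TFDP2, -0.69), where 7.47% of all genes rose and 8.06% fell. Mitosis genes had larger median changes than the members, which was not tested as a difference. All 20 fell in siControl RAS over control, with a median of -4.07, and 15 of 20 rose in knockdown over siControl RAS, with a median of 1.01. CENPA, the centromeric histone, had 21 counts in knockdown, 1 in siControl RAS and 271 in control libraries, CDC20, an activator of the anaphase-promoting complex, fell by 5.29 in siControl RAS cells, and BUB1B, a spindle checkpoint kinase, rose by 2.01 in knockdown cells. In wild-type add-back over knockdown 1 mitosis gene fell (CCNB1, the mitotic cyclin, -0.76, edgeR adjusted p = 0.0154), and 0 genes of the other 3 lists were called. MKI67 moved with the members, at log2 fold changes of -4.79 for siControl RAS over control and 2.00 for knockdown over siControl RAS, and its part in these results was not tested.

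**Figure D5:**
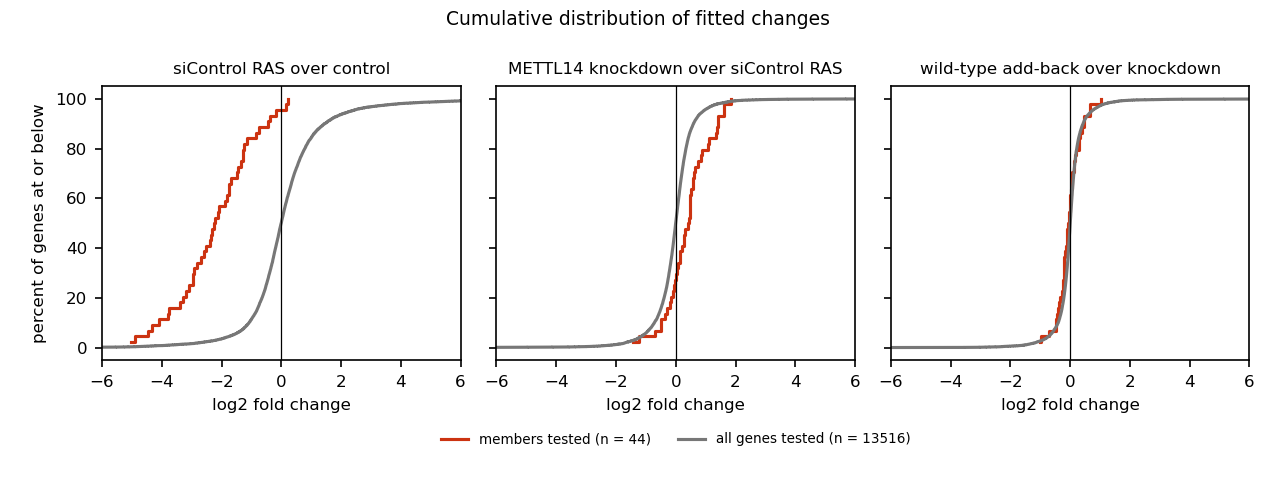
Cumulative share of genes (y axis) by log2 fold change (x axis) for the 44 tested members and for all 13516 genes tested, in siControl RAS over control, knockdown over siControl RAS and wild-type add-back over knockdown. The member curve is shifted to a median of -2.24 in the first panel and 0.43 in the second, and its median is -0.06 in the panel of wild-type add-back.

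Summed markers of other cell types differed between the groups. Of 9 epithelial markers 5 were detected, with a summed level of 81.5 to 91.8 CPM in knockdown, 37.6 to 58.4 CPM in siControl RAS and 135 to 148 CPM in control libraries. Of the 6 endothelial markers matched, summed levels were 30.9 to 37.6 CPM in knockdown, 23.6 to 30.3 CPM in siControl RAS and 13.6 to 20.1 CPM in control libraries. For the 6 leukocyte markers used they were 6.02 to 14.3 CPM in knockdown, 14.0 to 23.7 CPM in siControl RAS and 2.96 to 7.97 CPM in control libraries. Fibroblast markers summed to 18294 to 19130 CPM in knockdown, 22202 to 23234 CPM in siControl RAS and 10614 to 10800.3 CPM in control libraries. The endothelial and leukocyte sums are nearly all 1 gene each, TEK with 2562 counts over all libraries and CD68 with 963, where no other gene of those lists had more than 71. The markers of other types that were at 0 and those that were detected are named above. The part of these shifts in the members' results was not tested.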

How the data were processed

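The authors deposited whole-number counts per Ensembl gene for 15 QuantSeq 3′ libraries (total 4917661 to 7763084), not normalised. The tools Bowtie2 and RSEM 1.2.12 and the build hg19 appear, with no step attached, per the submitters' processing notes. Not given in the sources used here are the annotation, the filters, the strand setting, and whether RSEM estimates were rounded before deposit. Where the genotype labels (knockout, knock-in) and the protocols (siRNA, lentivirus) differ, the protocols are followed.

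IDs were named from a table of gene symbols and GENCODE 29 (52301 IDs, 90.6%). All 15 libraries were fitted in 1 model with 5 group coefficients in edgeR 4.0.16 under R 4.3.3. Settings were TMM normalisation, the default expression filter (minimum count 10), and the robust quasi-likelihood F test on 10 residual degrees of freedom, two-sided, with Benjamini-Hochberg adjustment over 13516 genes. The biological coefficient of variation was 16.7%. CPM values are TMM-normalised; ± is SD for levels and SE for log2 fold changes. The code was tested on simulated data with known changes. An exact permutation test of 3 against 3 libraries cannot go below p = 0.1, so none was used.

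The members and gene lists were chosen with earlier results of these data known. Each list's count and median are given for a comparison, with the 2 called genes of largest rise and fall; some are left out of the text. A leukocyte marker is not reported here. Alternatives were other scalings, no low-count filter, DESeq2 1.42.0, limma-voom (limma 3.58.1), only the 6 libraries compared, a replicate block and leaving out each library. Replicate numbers were treated as unpaired: correlations of deviations were -0.0805 to 0.0983 over 30 same-numbered pairs, none above 0.1. A fold against 0 counts uses a floor of 3 counts over the group; ratios for 1 to 3 counts have exact 95% intervals, which cover counting error only. Promoters are from RefSeq (GRCh38.p14). The last 1000 bases of each member's annotated span in GENCODE 29 were searched for other genes. They held a gene on the opposite strand for 9 members (E2F8, CCNE2, MCM2, GINS2, GINS4, RFC4, RFC5, TYMS and RRM1). On the same strand they held a gene for 6 (MCM7, POLA2, PRIM1, POLD1, FEN1 and RRM2).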

Additional observations from a re-analysis of the deposited data

How the results depend on the processing

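The counts of members called kept their direction and stayed within 1.5 times under every alternative run. For siControl RAS over control the 34 calls became 34 with DESeq2's size factors, 35 with upper-quartile factors, 36 without the low-count filter, 35 in DESeq2, 36 in limma-voom and 37 with the 6 libraries alone, and 34 to 37 with 1 library left out. For knockdown over siControl RAS the 10 calls were 7 in limma-voom and with the 6 libraries alone, where 37 members were tested, 10 or 11 under the other settings with all libraries, and 8 to 11 with 1 library left out. For knockdown over control they were 38 to 39 with all libraries and 36 to 39 with 1 left out. The 3 comparisons of add-backs gave 0 under every setting, leave-one-out included (0 to 0). With a replicate block the counts were 34, 11, 38, 0, 0 and 0. The labels give the replicate numbers no shared batch, and no same-numbered pair had a correlation of deviations above 0.1, so the main fit is unpaired. As a weak hint of a shared effect, 8 of 15 libraries correlated best with a library of their own number among the other groups. With only 3 replicate numbers, some would do so without a shared effect, and whether 8 is more than that was not tested. Replicate 3 of siControl RAS and of both add-backs also lay together on the fourth principal component. No member called in a comparison changed sign under any alternative. Of the 10 calls in knockdown over siControl RAS, E2F1, CDC6, MCM5, RRM2, DNMT1 and RPA3 were kept throughout. GINS2, MCM10 and TK1 were lost in limma-voom (adjusted p = 0.0801, 0.210 and 0.0674). With the 6 libraries alone GINS2 and TYMS were lost (0.160 and 0.104 in edgeR). MCM10 did not pass the low-count filter there and was not tested. The calls lost with 1 library left out stand beside the results. The member median for knockdown over siControl RAS was 0.31 with the 6 libraries alone and 0.26 to 0.41 with 1 library left out, against 0.43. The cause was not tested. Depth limits the members under about 2 CPM, where 1 count is worth up to 0.203 CPM.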

Other observations

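Promoter words found in late cell-cycle genes, though not only there, were also counted in the 39 members with a RefSeq promoter, as a description. The CHR element (TTTGAA or TTCGAA, on either strand), which the DREAM and MuvB complexes bind, was in 3 members (7.69%), against 15.7% of the 10049 genes tested and 19.5% of all 27305 genes with a promoter. The CCAAT box, on either strand, was in 23 members (59.0%), against 43.6% and 39.7%. Median GC content of the windows was 66.7% for members, 64.7% for genes tested and 58.7% for all genes, so the sets differ in base composition.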
